A study of Mus musculus with 6 samples.

Results

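Klotho (Kl) and 3 of the fibroblast growth factor (FGF) receptor genes, Fgfr1, Fgfr2 and Fgfr3, were examined in sorted mouse retinal cells after optic nerve crush. The 4 genes were chosen by name, with the Kl log2 fold change between AAV-Sox11 and AAV-Control in view, from the authors' table of values per transcript. Kl and Fgfr1 each had 1 transcript row, so 2 of the 4 genes were measured, of 15450 named genes in all. Fgfr2 and Fgfr3 were not analysed here. The values of Kl and Fgfr1 under that comparison are therefore a description, with no test.

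Both groups consisted of mice about 3 to 4 weeks old at the start, with no strain given in the labels. Their eyes were injected with an adeno-associated virus (AAV) for 2 weeks, and the optic nerve was crushed in both groups 3 days before the tissue was collected. The AAV-Control group is labelled AAV-PLAP under genotype and the other group AAV-So11, as spelled there, and AAV-Sox11 elsewhere. Each group had 3 libraries, called A, B and C, and each library pooled 3 retinas from 3 animals. A control and a Sox11 preparation with the same letter were made on the same day. No uncrushed retina is part of the comparison, and neither the promoter of the virus nor the cells it reached are given in the labels. Live cells carrying the surface protein Thy1 were sorted as retinal ganglion cells, and polyadenylated RNA was amplified with a kit for very small inputs.

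Alpha-klotho, the product of Kl, is a single-pass membrane protein best known from the kidney and the choroid plexus. It binds FGF receptors and turns them into high-affinity receptors for the endocrine hormone FGF23, while its relative beta-klotho (Klb) does the same for the endocrine ligands FGF15 and FGF21. Bound receptors signal through the adaptor FRS2 to the RAS-ERK cascade, heparan sulfate assists most other FGF ligands, and Sprouty, Spred and Dusp proteins damp the signal. The klotho ectodomain can also be cut from the membrane by proteases and circulate.

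The transcripts behind the rows decide what each value stands for, so their distinguishing sequences are shown first. The Kl row was ENSMUST00000078856, the protein-coding transcript of 5118 nucleotides in 5 exons, from the gene on the plus strand at chr5:150952607-150993817 (GRCm38), which overlaps no other annotated gene. The other annotated Kl transcript keeps an intron after the third exon and was not analysed here. The Fgfr1 row was ENSMUST00000120106, of 3386 nucleotides in 9 exons, which the GENCODE M21 annotation classes as a retained intron with no coding sequence. The Fgfr1 gene lies on the plus strand at chr8:25513654-25575718. The row's transcript begins beyond the first 8 exons of the annotated coding transcript shown here, shares 2112 bases with it, and holds 1274 bases of its own, all in the retained intron. It is 1 of 19 annotated Fgfr1 transcripts, and 0 of the 9 protein-coding ones had a row. The Fgfr1 value is thus listed for a non-coding transcript, and how far reads of coding Fgfr1 mRNA from the shared bases were counted in it is not known. Fgfr1 also overlaps the annotated gene Gm16159, whose reads may not have been kept apart from it. The following lines show 40 bases across each exon boundary from the GENCODE M21 transcripts, with the exon in lower case and the retained intron in capitals.
Fgfr1 coding transcript: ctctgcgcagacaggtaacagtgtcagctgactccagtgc
Fgfr1 retained-intron transcript: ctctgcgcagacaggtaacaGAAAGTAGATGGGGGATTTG
Kl coding transcript: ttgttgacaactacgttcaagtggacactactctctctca
Kl retained-intron transcript: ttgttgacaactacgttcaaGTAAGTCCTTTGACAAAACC
The paired lines agree up to the boundary and differ after it, and the 20 capital bases of Fgfr1 belong to the stretch that sets this row apart from the coding transcript.

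**Figure D1:**
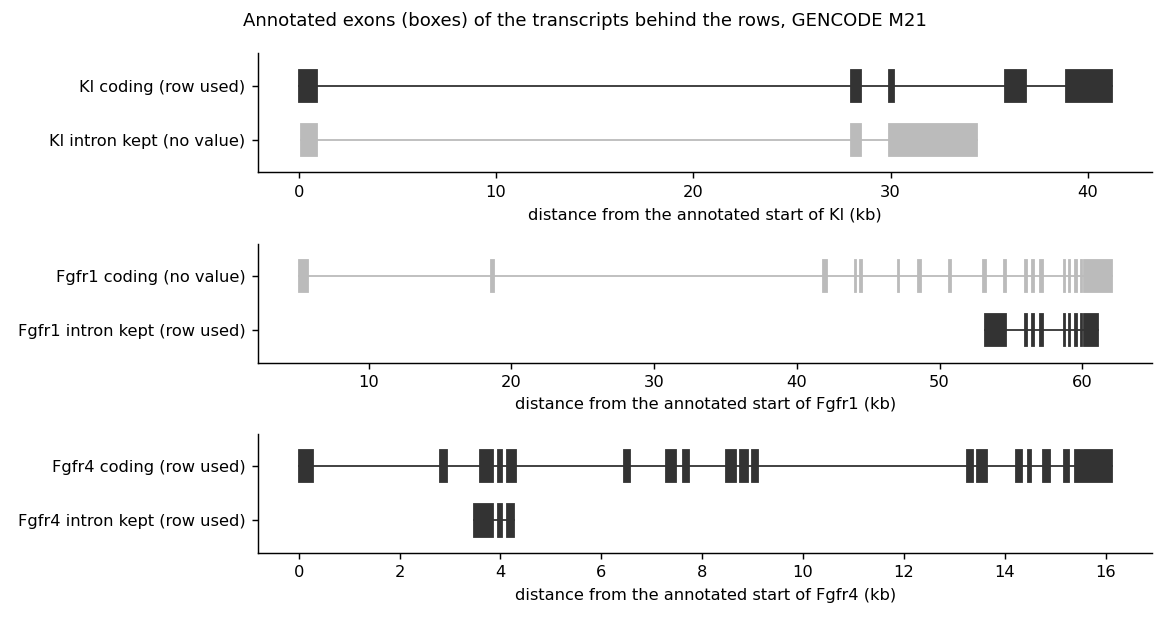
Annotated exons (boxes) along Kl, Fgfr1 and Fgfr4, with the distance from the annotated start of each gene in kb on the x axis. Dark models had a row in the table and light models had none, and the dark Fgfr1 model covers only the 3' part of the gene, with its retained intron as the wide first box.

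The libraries held summed whole-number values of 10747985 to 11546892. These numbers are adjusted values and stand for depth only roughly: of the 5 directions in which 6 libraries can differ, 1 had an SD of 9.48e-05 on the natural log scale against 0.098 to 0.242 in the other 4. That flattened direction drew 57.7% of its squared weight from AAV-Sox11 B. Replicate spread is therefore partly missing, and p-values describe only the spread left between pools. Sox11, the gene supplied by the virus, had a mean of 114.1 ± 15.6 in AAV-Control and 232.2 ± 52.1 in AAV-Sox11 libraries (SD, n = 3), which did not pass (limma adjusted p = 0.0504), and viral and endogenous transcripts were not told apart. AAV-Control A stood apart from the other controls in glial, cone and pericyte markers. Over all 15450 genes, limma called 123 higher (0.796%) and 235 lower (1.52%) with AAV-Sox11 at an adjusted p below 0.05, which is 2.32% in either direction.

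Kl was lower in every AAV-Sox11 library than in any control. The normalized values, which the authors scaled with 1 factor per library, were 515.5, 408.9 and 513.3 in AAV-Control A, B and C. They were 167.9, 173.4 and 221.2 in AAV-Sox11 A, B and C. The groups did not overlap: the highest AAV-Sox11 library, C, held less than AAV-Control B, the lowest control. Over all genes, 14.4% had all 3 AAV-Sox11 libraries below all 3 controls, and 30.7% had groups that did not overlap in either direction. The means were 479.3 ± 60.93 and 187.5 ± 29.33 (SD, n = 3), so Kl was 2.56 times as high in the controls. Its log2 fold change was -1.35 ± 0.15 (SE), on the log2(value + 1) scale, and ranked 150 from the lowest of the 15450 genes. Between libraries prepared on the same day the log2 difference was -1.61 for A, -1.23 for B and -1.21 for C. The log2 fold change lay between -1.48 and -1.28 when any 1 library was left out. The authors' deposited table gives -1.35 for the same row. In sorted pools such as these, fewer cells of a type that expresses Kl and less Kl RNA per cell cannot be told apart.

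The level of Kl was ordinary for the table. Divided by transcript length, the value of the Kl coding transcript was 93.64 ± 11.9 per kb in the controls and 36.64 ± 5.732 per kb with AAV-Sox11 (SD, n = 3). Its mean over the 6 libraries lay at percentile 56.8 of rows with an annotated length. The retained-intron row of Fgfr1 lay at percentile 9.1, at 8.033 ± 6.707 and 11.42 ± 1.909 per kb. Kl RNA thus lay near the middle of the table, while the Fgfr1 row was among its low values.

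The Fgfr1 row showed no separation of the groups. Its normalized values were 53.4, 13.7 and 14.5 in AAV-Control A, B and C, and 32.3, 38.4 and 45.2 in AAV-Sox11 A, B and C. AAV-Control A was the highest of all 6 libraries, while the other controls were the lowest, so the 3 AAV-Sox11 libraries lay inside the range of the controls. The means were 27.2 ± 22.71 and 38.67 ± 6.464 (SD, n = 3), and the log2 fold change was 0.76 ± 0.50 (SE). The same-day log2 differences had both signs, at -0.71 for A, 1.42 for B and 1.58 for C. Without AAV-Control A the log2 fold change was 1.38, without AAV-Control B 0.44 and without AAV-Control C 0.47. With log2 Xist minus the mean of 4 Y-linked genes as a covariate, called the Y-gene index here, the log2 fold change was 0.11. A higher index stands for relatively more RNA from female animals in a pool. That index was 6.816, 6.793 and 5.262 on the log2 scale in AAV-Control A, B and C and 6.865, 8.114 and 8.446 in AAV-Sox11 A, B and C. It was higher in every AAV-Sox11 library, narrowly so in A, so values fitted with it cannot be fully told apart from the virus group. The authors' deposited table gives 0.51 for this row.

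**Figure D2:**
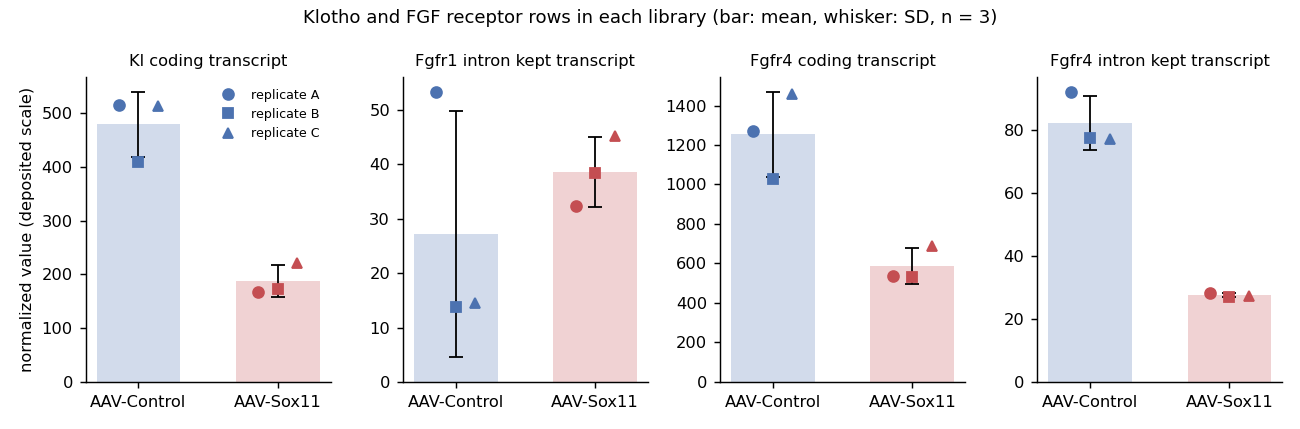
Normalized value (y axis, the authors' scale) of the Kl row, the Fgfr1 row and both Fgfr4 rows in each library, with circles, squares and triangles for replicates A, B and C, bars for means and whiskers for the SD (n = 3). In Kl and both Fgfr4 rows the 3 AAV-Sox11 points lie below all controls, while in the Fgfr1 row AAV-Control A, at 53.4, lies above every AAV-Sox11 point.

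A wider list of 108 genes of FGF and klotho signalling, in 15 groups by role, was read in the same fit, and 71 of them were measured. After adjustment over all 15450 genes, 0 rose, 2 fell (Fgfr4 and Hs6st3) and 69 did not pass, so 2.82% of the list was called against 2.32% of all genes. Without AAV-Control B, 3 genes passed as higher (Cbl, Flrt2 and Gab2). At an unadjusted p under 0.05 there were 13 higher and 6 lower, 26.8% of the list against 24.3% of all genes, with 9 higher and 11 lower under scaling by totals and 6 higher and 8 lower with the Y-gene index. The median log2 fold change was 0.11, with 43 positive and 28 negative values, against a median of 0.03 over all genes. Without AAV-Control C the list median was 0.02 (37 positive and 34 negative), under scaling by totals 0.05 (38 and 33), and with the Y-gene index -0.02 (34 and 37). AAV-Sox11 libraries lay all above the controls in 17 list genes (23.9%, against 16.2% of all genes) and all below in 7 (9.86%, against 14.4%). The list was drawn up with earlier results of these data known, so these counts are a description.

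Among receptors and co-receptors outside the chosen set, Fgfr4 was measured most strongly, and it fell. Fgfr4 encodes the FGF receptor that serves FGF19-type ligands with beta-klotho in the liver and that alpha-klotho can also bind. The gene lies on the plus strand at chr13:55152640-55168759 (GRCm38) and overlaps no other annotated gene. Its summed values were 1364.1, 1107.1 and 1538.0 in AAV-Control A, B and C and 565.1, 557.7 and 718.0 in AAV-Sox11 A, B and C. All AAV-Sox11 libraries lay below all controls, and AAV-Control C and AAV-Sox11 C were each the highest of their group. The means were 1336 ± 216.8 and 613.6 ± 90.49 (SD, n = 3), a log2 fold change of -1.12 ± 0.15 (SE) with a limma adjusted p of 0.0201. The call was lost with the flattened direction as a covariate (limma adjusted p = 0.0591), with the Y-gene index (0.153) and without AAV-Control A (0.0600), and over all 15 alternatives the adjusted p was 0.0168 to 0.153. It was also lost without AAV-Sox11 A, B or C (0.0798, 0.112 and 0.0683), settings under which 0 of 15450 genes passed in limma, with 3120, 1942 and 2953 at an unadjusted p under 0.05.

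Fgfr4 had rows for a coding and a non-coding transcript, and both fell. The coding transcript had 1271.8, 1029.6 and 1460.8 in AAV-Control A, B and C and 536.9, 530.7 and 690.8 in AAV-Sox11 A, B and C. Its log2 fold change was -1.09 ± 0.16 (SE), with a limma adjusted p of 0.0257 over all rows. The retained-intron transcript, of 590 nucleotides, had 92.2, 77.5 and 77.2 against 28.2, 27.0 and 27.2, a log2 fold change of -1.55 ± 0.18 (SE) with a limma adjusted p of 0.0182 over all rows. Neither row had overlapping groups. The authors' deposited table gives -1.10 for the first row and -1.58 for the second. The short transcript shares 476 of its bases with the coding one and has 114 of its own, so the rows are not independent measurements. The next lines show the 40 bases where they part, with the kept intron in capitals and exons in lower case.
Fgfr4 coding transcript: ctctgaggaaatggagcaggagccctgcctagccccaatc
Fgfr4 retained-intron transcript: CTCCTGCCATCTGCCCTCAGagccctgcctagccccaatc
The right-hand 20 bases are the same exon in both, and the left-hand 20 come from the preceding exon in the coding transcript and from the intron in the other.

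Per kb of transcript, Fgfr4 RNA exceeded Kl RNA in every library. The coding row of Fgfr4 had 377.3 ± 65.03 per kb in the controls and 176.3 ± 27.29 per kb with AAV-Sox11 (SD, n = 3), and its mean lay at percentile 88.0 of rows. The ratio of the coding rows, Fgfr4 to Kl, per kb was 3.8, 3.88 and 4.38 in AAV-Control A, B and C and 4.92, 4.71 and 4.81 in AAV-Sox11 A, B and C. The level per kb thus ran from the coding row of Fgfr4 through Kl to the Fgfr1 row, in both groups. Klb, the co-receptor for FGF15 and FGF21, lay lowest, at percentile 3.1, with 6.943 ± 3.737 and 3.78 ± 0.5989 per kb. In the controls Klb and the Fgfr1 row did not differ beyond their spread, and the remaining neighbours in that order lay further apart than their SDs. The summed Klb values were 14.6, 19.6 and 39.6 in AAV-Control A, B and C and 15.6, 11.4 and 13.1 in AAV-Sox11 A, B and C, so the groups overlapped. Its log2 fold change of -0.72 ± 0.38 (SE) did not pass (limma adjusted p = 0.286). The third klotho-family gene, Lctl, and the decoy receptor Fgfrl1 were not analysed here.

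None of the endocrine ligands that klotho proteins serve (Fgf15, Fgf21 and Fgf23) was analysed here. Of 15 paracrine FGF ligands, 4 were measured and 0 passed in limma, with a median log2 fold change of -0.29. The most abundant was Fgf9, a ligand of the developing retina, with 807.8, 735.5 and 664.8 in AAV-Control A, B and C and 512.9, 603.3 and 687.8 in AAV-Sox11 A, B and C. Its groups overlapped through AAV-Sox11 C, and its log2 fold change was -0.30 ± 0.13 (SE, limma adjusted p = 0.218). Fgf10 was far lower, at 56.12 ± 31.16 and 51.8 ± 8.281 (SD, n = 3). All 4 intracellular FGF homologous factors, which bind sodium channels and are not secreted, were measured and did not pass. Fgf12 led them with 893.1 ± 162.3 and 1006 ± 151, and Fgf11 followed with 644.5 ± 138.9 and 557.5 ± 29.41. Fgfbp3, a secreted FGF carrier, had 33.71 ± 1.748 and 34.83 ± 11.72.

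Downstream of the receptors, 10 adaptors and proximal signalling genes were measured and 0 passed in limma. They spanned log2 fold changes from -1.11 for Frs3 to 0.69 for Gab2. Frs3, a docking protein of FGF receptors expressed mainly in neural tissue, had 22.3, 18.6 and 16.4 in AAV-Control A, B and C and 8.3, 8.3 and 8.0 in AAV-Sox11 A, B and C. Its groups did not overlap, but its values were among the lowest in the table and its limma adjusted p was 0.0583. Gab2, a scaffold for phosphatases and PI3-kinase, had 1033.0, 1572.9 and 1498.5 in AAV-Control A, B and C and 2055.9, 2210.8 and 2266.5 in AAV-Sox11 A, B and C (limma adjusted p = 0.0630). Cbl, the ubiquitin ligase that sends activated receptors to degradation, had 2373 ± 318.8 and 3486 ± 269.5 (SD, n = 3, limma adjusted p = 0.0536). With the same-day letters as a block, Gab2 and Cbl passed as well, with limma adjusted p of 0.0354 and 0.0418. Same-letter deviations correlated at 0.793 for B but 0.002 for A, and AAV-Sox11 B weighed most in the flattened direction. These block calls thus cannot be read as an effect of the day or as added support. Sos1, the exchange factor that loads RAS, had 4435 ± 526.1 and 5037 ± 232.6 and did not pass.

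The RAS-ERK cascade had small positive values throughout. All 5 members read had a positive log2 fold change, from 0.08 to 0.35 with a median of 0.19, and 0 of 5 passed in limma, the lowest adjusted p being 0.139. The 5 signs held under each of 3 other scalings, with medians of 0.13 to 0.17, whereas with the Y-gene index 4 of 5 were positive. Braf, a kinase that activates MEK, was the most abundant, with 7436 ± 576.8 and 7825 ± 326 (SD, n = 3). Map2k1, the kinase MEK1, had 1494 ± 60.52 and 1708 ± 126.9, and Nras, which had the highest log2 fold change of the group at 0.35 ± 0.13 (SE), had 1082 ± 143.7 and 1378 ± 153.3.

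The feedback inhibitors, several of which are induced by FGF signalling, had mostly negative values, and none passed. Of 9 measured, 7 had a negative log2 fold change, the median was -0.14, and 0 passed in limma (lowest adjusted p 0.181). The median was 0.00 without AAV-Control A (5 of 9 negative), -0.29 without AAV-Control C (8 of 9) and -0.37 with the Y-gene index (9 of 9). Dusp6, the ERK phosphatase often read as an FGF response gene, had 676.7, 449.1 and 547.1 in AAV-Control A, B and C and 335.7, 404.0 and 573.2 in AAV-Sox11 A, B and C. Its groups overlapped, and its log2 fold change was -0.36 ± 0.22 (SE, limma adjusted p = 0.349). Spred3 had 760.7 ± 154.7 and 583.2 ± 15.31, the more abundant Spred1 5138 ± 308.7 and 4650 ± 278.9, and Dusp4, a nuclear ERK phosphatase, 321.2 ± 68.95 and 352.8 ± 14.43. Of the transcription factors induced through ERK, Etv5 had 84.2 ± 10.32 and 91.06 ± 11.1, and the immediate-early gene Egr1 108.9 ± 57.29 and 123.5 ± 45.8, and neither passed.

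Heparan sulfate, the polysaccharide that holds FGF and receptor together, was covered by 12 measured enzymes, of which 1 fell and 0 rose. Hs6st3 encodes a sulfotransferase that adds sulfate at the 6-O position of heparan sulfate, a modification that FGF receptor binding reads. Its values were 742.7, 801.2 and 832.7 in AAV-Control A, B and C and 410.8, 409.2 and 433.4 in AAV-Sox11 A, B and C. The groups lay far apart compared with their spread. The log2 fold change was -0.92 ± 0.09 (SE), with a limma adjusted p of 0.0132. The call was lost with the flattened direction as a covariate (limma adjusted p = 0.0580), with the Y-gene index (0.119) and without AAV-Sox11 A, B or C (0.0630, 0.112 and 0.0683), in a range of 0.00779 to 0.119 over 15 alternatives. Hs6st3, at chr14:119138341-119869815 on the plus strand, overlaps other annotated genes such as Gm6087, which the counting may not have kept apart. Ndst1, which starts the sulfation of the chain, had the highest log2 fold change of the enzymes at 0.46 ± 0.13 (SE) and did not pass (limma adjusted p = 0.0962). Hs2st1, the 2-O sulfotransferase, had 3368 ± 179.2 and 3846 ± 227.4 (SD, n = 3).

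Of the 8 measured core proteins that carry heparan sulfate, 0 passed in limma. The syndecans Sdc3 and Sdc2 were the most abundant, with 2295 ± 351.5 and 2060 ± 94.82 for Sdc3 and 640 ± 266.8 and 718.7 ± 96.07 for Sdc2. The glypican Gpc1 had the highest log2 fold change, 0.71 ± 0.21 (SE, limma adjusted p = 0.105), with all 3 AAV-Sox11 libraries above the controls. Gpc3 had the lowest, -0.24 ± 0.19. Among 6 membrane proteins that bind FGF receptors sideways, Flrt2 stood highest, with 348.5, 427.5 and 237.3 in AAV-Control A, B and C and 495.2, 681.2 and 633.5 in AAV-Sox11 A, B and C. Its groups did not overlap, and its limma adjusted p was 0.0788. The adhesion molecule Ncam1 had 8528 ± 1603 and 9947 ± 885.3, Flrt1 2637 ± 162.1 and 2456 ± 90.02, and the cadherin Cdh2 931.4 ± 51.05 and 770.2 ± 124.4, none of which passed.

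Of the genes tied to the klotho protein itself, none of those read passed. The 3 proteases that release the klotho ectodomain were measured and 0 passed in limma. Adam10 had 924.3 ± 210.1 and 1045 ± 64.29, and Bace1 1588 ± 176.4 and 1609 ± 54.01 (SD, n = 3). Of 14 genes of klotho-linked mineral handling, 5 were measured and 0 passed in limma, with a lowest adjusted p of 0.139. Slc20a2, a sodium-phosphate cotransporter, had 915.6 ± 162.2 and 1085 ± 75.79. Atp1b1, a beta subunit of the Na/K-ATPase, had 10270 ± 818.7 and 12150 ± 409.6 (SD, n = 3, limma adjusted p = 0.139). The vitamin D receptor gene Vdr, a regulator of Kl in the kidney, was low and scattered, with 5.8, 34.3 and 13.5 in AAV-Control A, B and C and 58.4, 31.2 and 7.0 in AAV-Sox11 A, B and C.

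**Figure D3:**
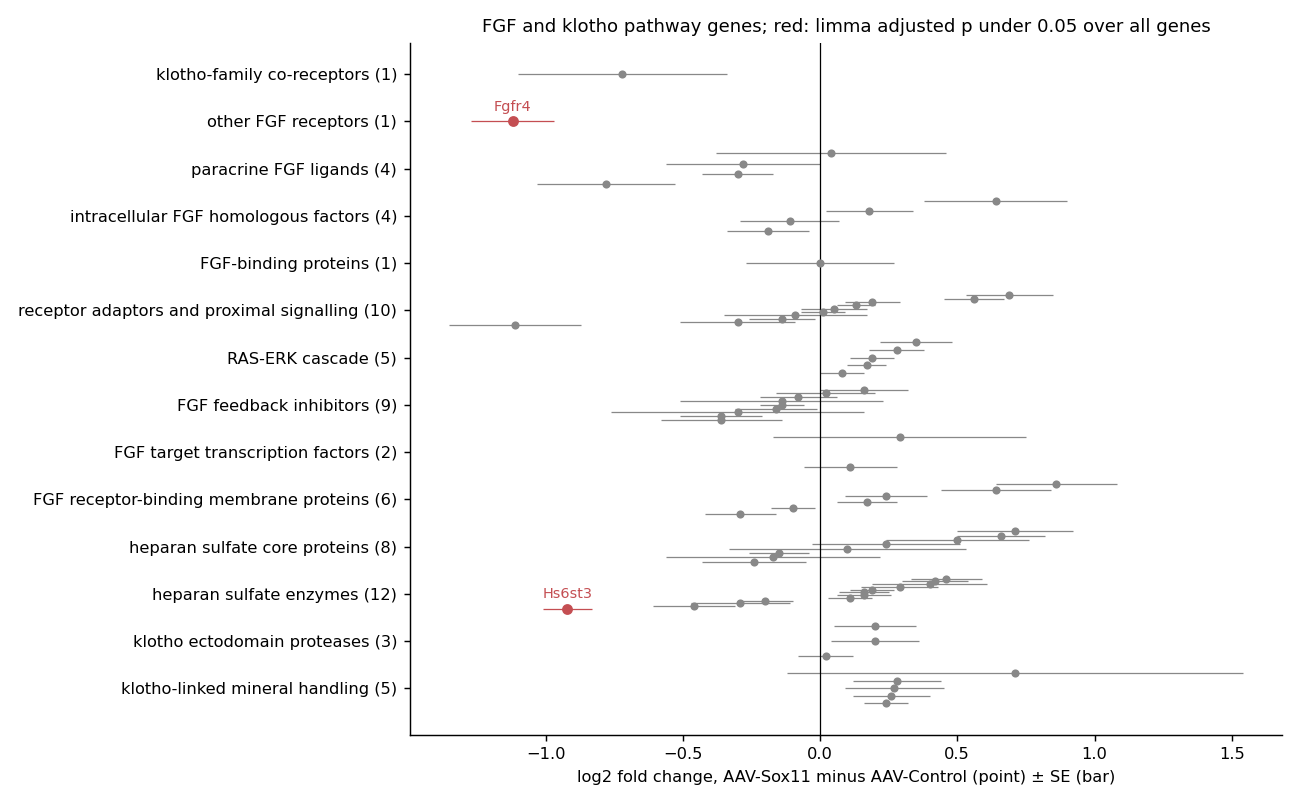
Log2 fold change, AAV-Sox11 minus AAV-Control (x axis, log2(value + 1) scale), of each pathway gene read, with points for the estimate, bars for the SE and groups of genes by role on the y axis with the number measured. Red points passed an adjusted p of 0.05 over all genes: Fgfr4 at -1.12 and Hs6st3 at -0.92.

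Profiles over the 6 libraries were compared with that of Kl after each gene was centred on the log2 scale. Among 11722 genes with a mean of at least 50, the root mean square log2 difference from Kl was smallest for Clec14a (0.121), followed by Fgfr4 and Dlc1 (both 0.131), Fam131c (0.145) and Gm9930 (0.148), against a median of 0.748. Fgfr4 was thus the second nearest profile to Kl. Clec14a, a C-type lectin domain protein, had 166.0, 150.0 and 169.8 in AAV-Control A, B and C and 67.8, 67.5 and 76.4 in AAV-Sox11 A, B and C. Dlc1, a GTPase-activating protein, had 268.0, 172.6 and 253.8 against 93.8, 92.4 and 117.6, with AAV-Control B lowest of the controls as in Kl. For the Fgfr1 row the nearest were Ptpn3 (0.131), Lama4 (0.136) and Slc22a4 (0.259), against a median of 0.749. Ptpn3, a tyrosine phosphatase, had 285.5, 85.3 and 79.1 in AAV-Control A, B and C and 217.9, 247.2 and 247.4 in AAV-Sox11 A, B and C. Lama4, a laminin chain, had 129.1, 46.1 and 40.5 against 95.9, 115.3 and 119.7. These genes shared with the Fgfr1 row a high AAV-Control A and low AAV-Control B and C. The likeness describes 6 libraries that were also used to choose Kl, and many genes share their library differences.

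**Figure D4:**
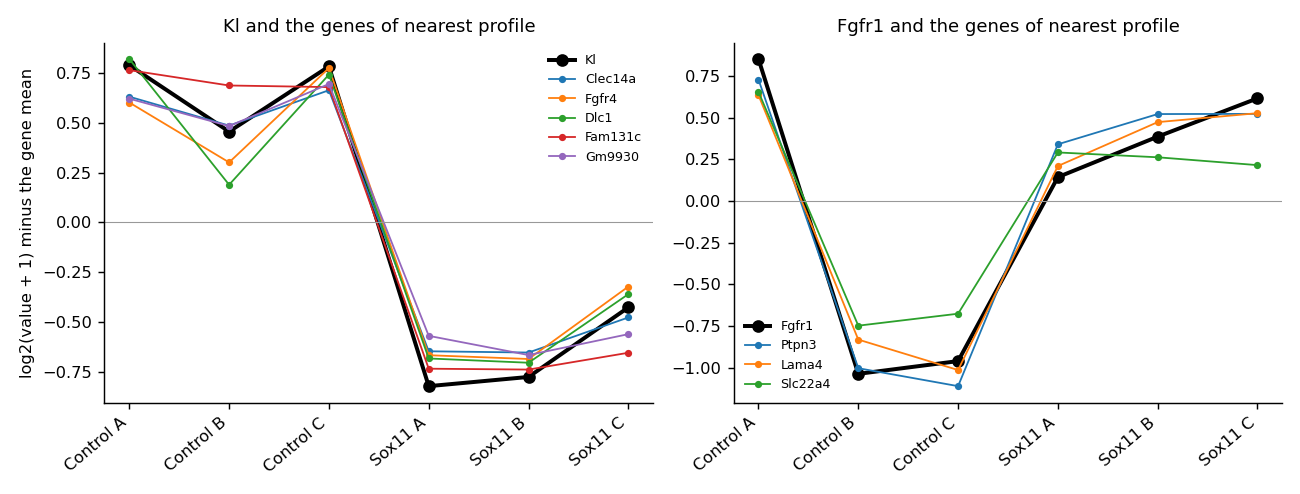
Log2(value + 1) minus the gene's own mean (y axis) in each of the 6 libraries (x axis) for Kl with its 5 nearest genes, and for Fgfr1 with its 3 nearest. The Kl panel drops between the controls and the AAV-Sox11 libraries, while the Fgfr1 panel is set by AAV-Control B and C, which lie below the other 4 libraries.

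Around Kl on chromosome 5, 1 of the 4 nearest annotated genes was measured. Stard13, a GTPase-activating protein on the opposite strand with its near end 43692 bases downstream of Kl, had 205.8, 199.1 and 211.3 in AAV-Control A, B and C. It had 141.8, 124.6 and 112.6 in AAV-Sox11 A, B and C. Its groups did not overlap, and it fell by 0.70 on the log2 scale (SE 0.13), with a limma adjusted p of 0.0465. The call held in 7 of 15 alternatives, with an adjusted p of 0.0411 to 0.268: it was lost with the flattened direction (0.149) or the Y-gene index (0.203) as a covariate, without AAV-Control A, B and C (0.0796, 0.0520 and 0.0683) and without AAV-Sox11 A, B and C (0.0995, 0.268 and 0.135). Most of the Stard13 value came from a retained-intron row, at 182.4 ± 8.728 and 110.9 ± 15.41 (SD, n = 3), while the coding row had 23.01 ± 5.643 and 15.42 ± 0.7564. Taken singly, neither row passed, with a limma adjusted p over all rows of 0.0527 and 0.289. Upstream, the nearest protein-coding gene, Pds5b, chosen after its values were seen, lies 141916 bases away. Its log2 fold change was -0.13 ± 0.10 (SE, limma adjusted p = 0.480). Gm36447, Gm43298 and Gm8675, the other close neighbours, were not analysed here.

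The promoters of Kl and Fgfr4, 2 genes of similar profile, were searched for 2 SOX-type letter strings, ACAAAG and ACAATG, and for the GC box GGGCGG, on both strands of RefSeq windows of 300 bases (GRCm38.p6). ACAAAG occurred in 18.7% and ACAATG in 12.6% of 32851 such windows, and the GC box in 35.7%. The windows of Kl and Fgfr4 held 0 matches to either SOX-type string, which says only that these letters are not in these windows. They held 3 GC-box matches in Kl and 4 in Fgfr4, and 67.3% and 65.3% of their bases were G or C, against a median of 52.7%. The 250 bases upstream of the annotated Kl start, chr5:150952357-150952606 on the plus strand, are shown because they are the part of that window before the transcript begins, with the GC box in capitals on either strand.
Kl upstream: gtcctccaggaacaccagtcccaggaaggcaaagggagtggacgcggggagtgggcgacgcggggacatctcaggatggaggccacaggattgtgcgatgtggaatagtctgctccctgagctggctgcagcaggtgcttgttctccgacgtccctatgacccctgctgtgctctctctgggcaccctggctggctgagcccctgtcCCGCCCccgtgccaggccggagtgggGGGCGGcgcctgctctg
Of the 3 matches in the Kl window, 2 lie in these bases, 1 on each strand.

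Markers of retinal cell types were read in the same libraries, because Kl and the receptors are expressed in several of them. Ganglion cell markers were present, 8 of 9, with summed values of 6535 to 9796 in the controls and 7725 to 10270 with AAV-Sox11. That sum hid members of opposite sign, none of which passed in limma. Slc17a6 had 1188 ± 276.7 and 2404 ± 764.6 (SD, n = 3) and Pou4f2 21.76 ± 10.92 and 58.57 ± 11.29, without overlap. The groups overlapped in the others, with log2 fold changes of -0.33 for Nefl, -0.39 for Nefm, 0.78 for Pou4f1, 0.59 for Sncg, 0.37 for Thy1 and 0.02 for Rbpms. The 5 rod markers read summed to 12340 to 20600 and 8611 to 14750, and amacrine markers to 9385 to 13180 and 10710 to 13110, so the sorted pools also held RNA of other neurons. The lists whose sums did not overlap were bipolar cells (6 of 6; 7382 to 10360 against 6197 to 7170), horizontal cells (2 of 4; 10470 to 11710 against 6371 to 7056) and pigment epithelium (2 of 9; 288.3 to 431.5 against 531.7 to 559.1). The horizontal cell sum was almost wholly Prox1, a homeobox factor also made by some amacrine and bipolar cells, with 11695.2, 10448.4 and 11101.9 in AAV-Control A, B and C and 6358.4, 6475.7 and 7038.8 in AAV-Sox11 A, B and C (limma adjusted p = 0.0153). The amacrine sum was mostly Gad2, and the amacrine marker Slc6a9, a glycine transporter, had 462.1, 285.3 and 391.7 in AAV-Control A, B and C and 208.5, 185.9 and 190.0 in AAV-Sox11 A, B and C (limma adjusted p = 0.0481). The bipolar sum was mostly Prkca, whose groups overlapped at 5844 ± 520.8 and 5580 ± 302.1 (SD, n = 3), and 1 of the 6 bipolar markers had all AAV-Sox11 libraries below the controls. Over 15 alternatives, 1 of which (no filter) equals the main fit, the limma adjusted p was 0.00775 to 0.119 for Prox1 and 0.0219 to 0.241 for Slc6a9. It was past the threshold in 10 and 8 of them. Both calls were lost with either covariate and without any 1 AAV-Sox11 library, and that of Slc6a9 also without AAV-Control A or C. Prox1 and Slc6a9 thus had the direction of Kl and Fgfr4, and the part of their cells in the result was not tested. Most other amacrine markers had the opposite sign, with log2 fold changes of 0.09 for Gad1, 0.25 for Gad2 and 0.33 for Tfap2b. Tfap2a was at 0.52, with all 3 AAV-Sox11 libraries above the controls, and Slc32a1 at -0.05. None of these passed in limma. Markers of other cells also had the direction of Kl. The 5 cone markers had log2 fold changes of -0.98 to -0.72, with overlapping groups. Of 5 microglia markers, 3 were measured: Cx3cr1 at -0.53, C1qa at -0.57 and P2ry12 at -0.73. P2ry12 had all AAV-Sox11 libraries below the controls, while the microglia sums overlapped (282.4 to 620.4 against 239.9 to 324.8). No cone or microglia marker passed in limma, and the part of these cells in the Kl values was not tested. The pigment epithelium, known for Kl expression, was represented by Best1 and Mitf only. Its sum was mostly Mitf, with 290.3 ± 88.97 and 439.6 ± 21.46 (SD, n = 3, limma adjusted p = 0.133). Best1 had overlapping groups, at 88.61 ± 31.92 and 109.6 ± 15.63. The part of this tissue in the Kl values was not tested. The visual-cycle genes Rpe65, Rgr and Lrat of the pigment epithelium, as well as the 4 endothelial markers, were not analysed here.

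AAV-Control A was the library in which many markers of glia, pericytes, cones and bipolar cells peaked. It was the highest of the 6 libraries for 5 of 5 cone, 5 of 6 bipolar, 4 of 5 Muller glia, 2 of 2 astrocyte and 2 of 2 pericyte markers, and for 20.6% of all genes. The pericyte sum was 15740, 3328 and 2962 in AAV-Control A, B and C and 5981, 6194 and 5511 in AAV-Sox11 A, B and C. This sum was almost wholly Rgs5, and the other pericyte marker, Kcnj8, had 289.3, 62.8 and 63.7 in AAV-Control A, B and C and 59.4, 57.1 and 54.3 in AAV-Sox11 A, B and C, without the same arrangement. The Fgfr1 row was arranged like the pericyte sum, with AAV-Control A on top, AAV-Control B and C at the bottom and the AAV-Sox11 libraries between them. The Muller glia sum had this arrangement too. It was 14130, 6137 and 5644 in AAV-Control A, B and C and 8098, 7782 and 6583 in AAV-Sox11 A, B and C. The part of these cells in the Fgfr1 values was not tested. Kl did not peak there alone: AAV-Control A and C had nearly equal values of 515.5 and 513.3, and without AAV-Control A its log2 fold change was -1.30.

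**Figure D5:**
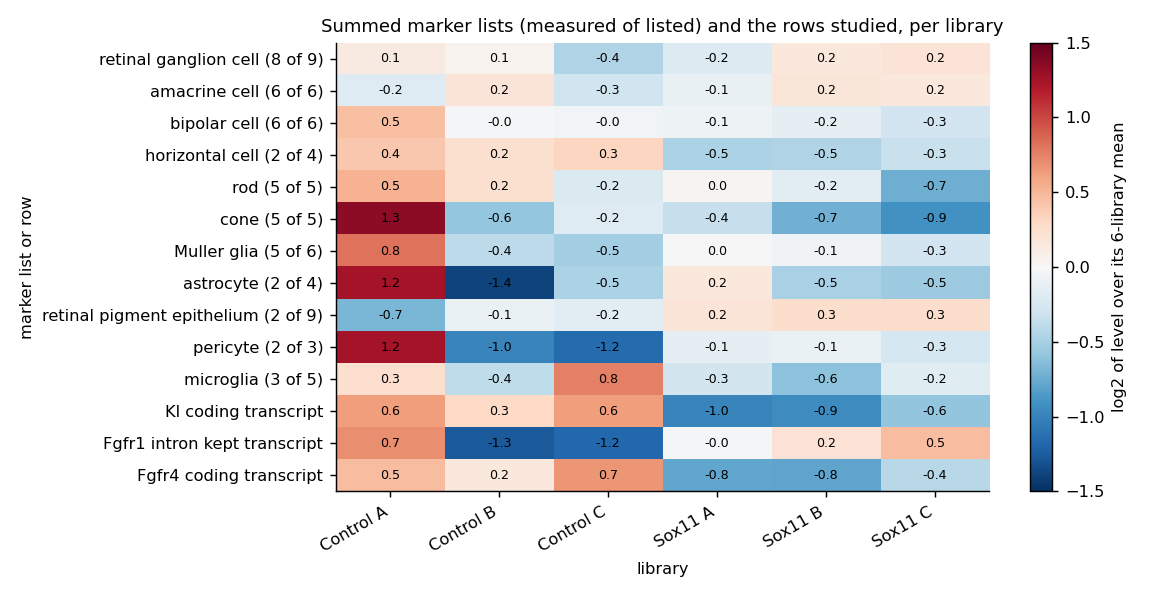
Log2 of the level over its 6-library mean (colour and printed number) for each summed marker list, with the number measured of those listed, and for the Kl, Fgfr1 and coding Fgfr4 rows, in each library (x axis). The Kl and Fgfr4 rows split by group, while the Fgfr1 row and the pericyte and Muller glia lists are highest in AAV-Control A and lowest in AAV-Control B and C.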

How the data were processed

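Per the submitters' processing notes, CASAVA 1.8.2, edgeR and the mouse build mm10 were used. Nothing on the aligner, the counter or the strand setting is given in the sources used here. A single table was deposited by the authors, with 26691 transcript rows that hold a whole-number score per library, a normalized signal (the score times 1 factor per library, 0.9649 to 1.0425), log2 fold changes and p-values of their own. Rows without a gene name (357, holding 0.422% to 0.517% of each library) were left out. The score is an adjusted value from which 1 direction across the libraries was removed, so the planned count test did not apply.

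Normalized values were summed per gene name and tested with limma-trend (limma 3.58.1, R 4.3.3) on log2(value + 1), 3 against 3 libraries, with no covariate and Benjamini-Hochberg adjustment over 15450 genes, two-sided. The fit was tested on simulated data. A minimum mean of 1 removed no gene. Rows were matched by transcript identifier to GENCODE M21 (97.8%) for lengths and structures. Promoters came from RefSeq (GRCm38.p6).

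The members and gene lists were chosen with earlier results of these data known. Named genes were the members, list genes that passed, the 2 most abundant of each group, in groups of at least 5 measured genes the highest and lowest fold change, the nearest profiles, the neighbours of Kl and the markers. Of the genes listed at the outset, 4 are not reported here and are left out of the list counts and sums. The pairing by letter comes from the series description (same day). Same-letter deviations from the group means correlated at 0.002 for A, 0.793 for B and 0.236 for C. Between different letters they ran from -0.876, for AAV-Control C with AAV-Sox11 B, to 0.198, so the value for B cannot be read as an effect of the day. Alternatives were other scalings, a pseudocount of 5, a minimum mean of 50, no filter, the replicate block, 2 covariates, single rows and leaving out each library.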

Additional observations from a re-analysis of the deposited data

How the results depend on the processing

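Kl kept its sign under every alternative run, with a log2 fold change of -1.48 to -1.28 when 1 library was left out, and so did Fgfr1, at 0.44 to 1.38 and at 0.11 with the Y-gene index. A minimum mean of 50 removed the Fgfr1 row, and a fit with no filter removed no gene, so it matched the fit with one. Pathway genes that rose numbered 0, against 2 with the replicate block, and those that fell went from 2 to 0 with the flattened direction or the Y-gene index as a covariate. Leaving out 1 library gave 0 to 3 pathway genes higher and 0 to 2 lower. Over all genes, scaling by totals called 356 lower, the replicate block 323 higher and 414 lower, and either covariate 0 in both directions, with 2582 (direction) and 2702 (Y-gene index) genes at an unadjusted limma p under 0.05. Leaving out 1 library gave 0 to 339 higher and 0 to 406 lower: 51 and 87 without AAV-Control A, 339 and 406 without B, 185 and 210 without C, and 0 without any 1 AAV-Sox11 library. The replicate block, pairing libraries of the same day, changed no call other than those of Gab2 and Cbl among the named list genes and the neighbours of Kl.

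Named genes that changed sign had no call in either direction. Bace1 was at -0.0033 under TMM, -0.00018 under median-of-ratios, -0.039 under total scaling and -0.087 with the Y-gene index. Fgf10 was at -0.018 under total scaling and -0.803 with that index, and Fgfbp3 at 0.00052 with a pseudocount of 5. With the index, Braf was at -0.025, Slc20a2 at -0.053, Dusp4 at -0.098, Klb at 0.045, Sdc2 at -0.304 and Sdc3 at 0.079. Fgfbp3, Bace1, Egr1 and Fgf10 also changed sign without 1 library, with ranges of -0.245 to 0.229 for Fgfbp3, -0.02 to 0.115 for Bace1, -0.222 to 0.651 for Egr1 and -0.437 to 0.444 for Fgf10. The causes were not tested. Count-model alternatives were not run because the values are not counts, and 3 libraries per group limit all tests.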
